A study of Mus musculus with 15 samples.

Results

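The solute carriers were examined here as 226 of the 14392 genes listed in the RNA-seq table, and among those listed they were chosen by name alone. A member carries the family number of the solute carrier nomenclature, a subfamily letter and a member number, and Slc38a4 and Slc22a18 were left out. The members fall into 45 families and were grouped into 14 classes. The class follows the family unless a gene was assigned singly, so a member need not carry the substrate its class is named for. The Slc25 family forms the mitochondrial carrier class. Zygotes and 2-cell embryos, each WT or cKO, were measured in 2 libraries per group, with 10 embryos pooled in a library and cDNA made by Smart-seq2. All mice had a C57BL/6 background. WT embryos came from Usp16 +/+ mothers. The cKO embryos came from Usp16 fl/fl;Gdf9-Cre mothers, in which Cre is driven by the oocyte promoter Gdf9 and the maternal Usp16 allele is lost during oocyte growth. All mothers were superovulated juvenile females mated to WT males, so cKO embryos carry an intact paternal Usp16 allele. The values are FPKM, fragments scaled to transcript length and to the mapped reads of the library. Every value under 1 had been set to 1, so 1 is a floor and a fold against it is a lower bound. FPKM holds no read counts, and the depth of the libraries is unknown.

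Solute carriers are membrane proteins that move small solutes along or against their gradients, as uniporters, symporters or exchangers, without hydrolysing ATP. Some sit in the plasma membrane and supply the cell with sugars, amino acids, ions and vitamins. Others sit in the inner mitochondrial membrane, the Golgi or endosomes and pass metabolites between compartments. The cleaving mouse embryo is known to depend on pyruvate and lactate before it can use glucose, to hold its volume with glycine and other organic osmolytes, and to regulate its pH with ion exchangers. A zygote relies on mRNAs stored in the oocyte. The main wave of zygotic genome activation (ZGA) follows at the 2-cell stage.

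The deleted gene was read at 184 and 187 FPKM in WT zygotes and at 16.8 and 22.0 in cKO zygotes. At the 2-cell stage Usp16 stood at 168 and 183 in WT and at 168 and 84.8 in cKO, so cKO 2-cell replicate 1 lay close to WT. Dppa3, Zp3 and the other oocyte transcripts examined were present in every library. At the 2-cell stage Bmp15, Zar1, Nlrp5, Oosp1 and Padi6 were lower in both cKO than in both WT libraries. Dppa3 and Zp3 were higher in both cKO libraries, and Gdf9 overlapped. Of 4 2-cell genes, 2 are listed, Zscan4d and Zfp352. They were higher in all 4 2-cell libraries than in all 4 zygote libraries, and lower in both cKO than in both WT 2-cell libraries. Of the markers of other cells, 3 of 10 cumulus and granulosa genes, 4 of 5 sperm genes and 1 of 3 blood genes are listed. The summed cumulus list ranged from 24.3 to 28.7 FPKM in WT zygotes and from 4.38 to 10.3 in WT 2-cell embryos, and nearly all of the zygote sum was Cyp19a1. The sperm list ranged from 16.5 to 23.1 and from 7.28 to 11.4, and the blood gene from the floor to 8.66 FPKM. In cKO 2-cell embryos the cumulus and sperm sums were at most 3.32 and 4.97. The part of these markers in the results was not tested. Library cKO 2-cell replicate 2 stood apart with a summed FPKM of 770989, against 547752 to 593317 in the others. The Spearman coefficient between the replicates over the 226 transporters was 0.964 (WT) and 0.963 (cKO) in zygotes, and 0.943 (WT) and 0.823 (cKO) at the 2-cell stage. It is a description across genes, which are not independent.

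Promoter windows are shown for 4 transporters on which the results below turn. Slc34a2 and Slc19a3 had the largest stage differences, Slc2a8 had the smallest p between the 2-cell genotypes, and Slc3a2 was the most abundant transporter called lower in cKO. The 300 bases run from 250 before to 50 after the RefSeq start site (GRCm38.p6, 5′ to 3′ on the gene's strand), and capitals mark CpG dinucleotides.
Slc34a2 (chr5:53049103-53049402, plus strand): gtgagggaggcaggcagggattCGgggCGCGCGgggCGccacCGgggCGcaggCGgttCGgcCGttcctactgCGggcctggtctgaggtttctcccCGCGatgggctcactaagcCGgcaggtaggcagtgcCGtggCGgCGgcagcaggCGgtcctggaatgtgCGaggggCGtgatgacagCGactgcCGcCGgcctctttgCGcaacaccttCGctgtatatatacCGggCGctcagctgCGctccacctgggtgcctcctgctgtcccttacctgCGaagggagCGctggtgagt
Slc19a3 (chr1:83038399-83038698, minus strand): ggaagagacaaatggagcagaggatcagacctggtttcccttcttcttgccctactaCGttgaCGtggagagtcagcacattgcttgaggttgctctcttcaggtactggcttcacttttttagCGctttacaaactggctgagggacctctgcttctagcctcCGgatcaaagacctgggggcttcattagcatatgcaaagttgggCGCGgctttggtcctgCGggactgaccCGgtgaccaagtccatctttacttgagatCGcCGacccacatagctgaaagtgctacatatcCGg
Slc2a8 (chr2:32982034-32982333, minus strand): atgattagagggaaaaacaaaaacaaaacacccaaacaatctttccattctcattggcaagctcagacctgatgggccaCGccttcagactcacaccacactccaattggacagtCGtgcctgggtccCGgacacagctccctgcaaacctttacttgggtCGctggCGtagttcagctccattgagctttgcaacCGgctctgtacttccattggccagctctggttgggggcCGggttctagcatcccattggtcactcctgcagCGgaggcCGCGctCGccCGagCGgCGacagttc
Slc3a2 (chr19:8713848-8714147, minus strand): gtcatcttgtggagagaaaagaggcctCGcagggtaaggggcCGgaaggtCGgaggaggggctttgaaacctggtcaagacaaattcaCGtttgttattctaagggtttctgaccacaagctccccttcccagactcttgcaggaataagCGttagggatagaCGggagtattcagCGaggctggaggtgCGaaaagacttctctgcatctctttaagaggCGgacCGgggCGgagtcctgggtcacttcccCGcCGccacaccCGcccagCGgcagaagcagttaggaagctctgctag
The Slc34a2 window holds 30 CpG, that of Slc3a2 15, that of Slc2a8 14 and that of Slc19a3 11. The median over all 32851 windows of this length in the table is 7, with quartiles of 3 and 20. On either strand, GGGCGG occurs 2 times in the Slc3a2 window and in 35.7% of all windows. CCAAT occurs 5 times in the Slc2a8 window and in 37.4% of all windows, and TATAAA is in 13.6% of all and in none of these 4. Of the 226 members, 176 are in this table.

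As a set, the transporters were more abundant in WT 2-cell embryos than in WT zygotes. The summed FPKM of WT was 2429 and 2107 in zygotes and 3107 and 3420.2 at the 2-cell stage. That of cKO was 2499 and 2222 in zygotes and 2449 and 2391 at the 2-cell stage. WT 2-cell embryos thus lay above the other 3 groups, whose ranges overlapped. In each zygote library 80 to 93 of the 226 members were at the floor. At the 2-cell stage the WT libraries had 34 and 32 members there and the cKO libraries 77 and 87. The same pattern held over all genes, of which 29.5% to 33% were at the floor in zygotes. At the 2-cell stage 11.4% and 11.9% of all genes were there in WT, and 25.6% and 29.5% in cKO. In every library the share of the members was above that of all genes. After median-ratio scaling, which sets the typical gene equal in all libraries, the median difference between the 2-cell genotypes over all genes moved from -0.30 to 0.00 on the log2 scale. The summed FPKM of cKO over WT 2-cell embryos was then 1.03, with overlapping libraries. It was 0.741 as deposited and 0.633 after scaling by the summed FPKM of each library. In both of these the cKO libraries lay below the WT libraries. In bulk libraries, fewer embryos with a transcript and less RNA per embryo cannot be told apart.

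**Figure D1:**
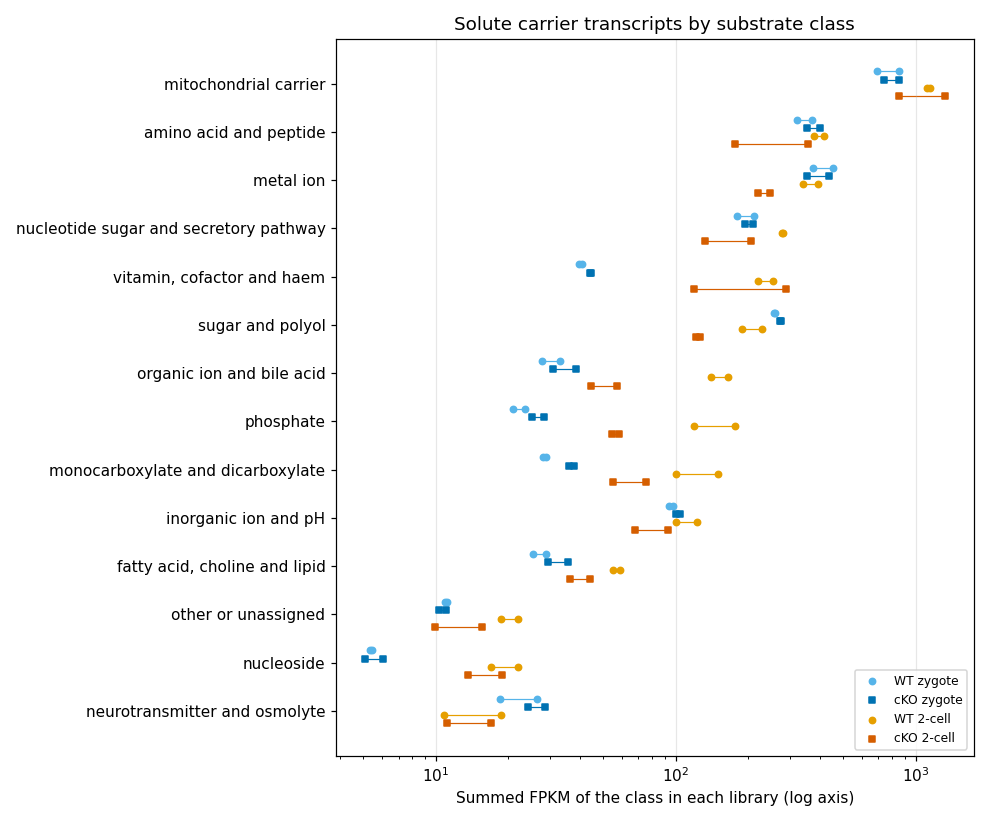
Summed FPKM of the transporters of each substrate class (log axis) in each of the 8 libraries, with the replicates of a group joined by a line. The organic ion, monocarboxylate, phosphate, vitamin and nucleoside classes were higher in both WT 2-cell libraries than in both WT zygote libraries by more than 3-fold in their means, and the sugar class was lower.

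The first comparison asks which transporters change as WT embryos pass from the zygote to the 2-cell stage. By limma on log2(FPKM + 1), with Benjamini-Hochberg adjustment over all genes, 89 of the 226 members (39.4%) rose and 22 (9.73%) fell. Over all genes, 36.6% rose and 14.9% fell, so the share that rose lay near this background. The median log2 difference was 0.36 over the members and 0.27 over all genes. After median-ratio scaling these medians were 0.11 and 0.03, and limma called 70 members higher and 33 lower. By a 3-fold difference of the means, 59 members were higher, against 26.0% of all genes, and 9 were lower, against 8.78%. Of the 89 that rose, 49 (55.1%) were at the floor in all 4 zygote libraries, against 44.2% of all genes that rose. Of the members called, 56 of the 89 and 6 of the 22 were called again in every other fit that held them. Without either of the WT 2-cell replicates, 11 fell.

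Of the 10 transporters that rose most, 7 had no reading above the floor in any zygote library. Slc34a2 encodes a sodium-phosphate cotransporter of epithelia (chromosome 5, 53429321 to 53462903 on mm9). It was at the floor in all 4 zygote libraries and at 98.9 and 153 FPKM in WT 2-cell embryos. That is at least 126-fold higher, with a log2 difference of 5.96 ± 0.22 (SE, adjusted p = 4.18e-05). Slc19a3 encodes a thiamine transporter (chromosome 1, 83009098 to 83035023). It was likewise at the floor in every zygote library and reached 143 and 157 FPKM, at least 150-fold higher, with a log2 difference of 6.24 ± 0.35 (SE, adjusted p = 7.0e-05). Both were among the most abundant transporters of the WT 2-cell embryo.

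Slc16a6 encodes a transporter of the monocarboxylate family. It was at the floor in all zygotes and at 62.0 and 90.2 FPKM in WT 2-cell embryos, with a log2 difference of 5.24 ± 0.25 (SE, adjusted p = 5.15e-05). Slc5a6 takes up biotin and pantothenate (chromosome 5, 31338409 to 31351297), and it moved from 1.10 and 1.08 to 50.6 and 66.7 FPKM, with a log2 difference of 4.82 ± 0.25 (SE, adjusted p = 6.12e-05). Slc25a25, a mitochondrial ATP-Mg/phosphate carrier, was at the floor in zygotes and at 43.6 and 42.8 FPKM, with a log2 difference of 4.46 ± 0.22 (SE, adjusted p = 5.18e-05). In each case both 2-cell libraries were far above both zygote libraries.

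The zinc importers Slc39a1 and Slc39a4 were at the floor in all 4 zygote libraries. In WT 2-cell embryos Slc39a1 stood at 34.8 and 45.9 FPKM and Slc39a4 at 19.3 and 39.0, with log2 differences of 4.36 ± 0.24 (SE, adjusted p = 6.40e-05) and 3.83 ± 0.31 (SE, adjusted p = 0.000176). Slc35e3, a Golgi family member without a firm substrate, reached 22.0 and 27.5 FPKM from the floor, with a log2 difference of 3.68 ± 0.19 (SE, adjusted p = 5.78e-05). Slc25a36, a mitochondrial pyrimidine nucleotide carrier, moved from 1 and 1.11 to 21.8 and 29.1 FPKM, with a log2 difference of 3.67 ± 0.21 (SE, adjusted p = 7.20e-05). Slc10a3, an orphan of the bile acid transporter family, moved from 6.40 and 6.14 to 69.3 and 85.9 FPKM, with a log2 difference of 3.43 ± 0.34 (SE, adjusted p = 0.000371). All 10 of these transporters were called in each of the 16 other fits.

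The transporters that fell were stored transcripts of the zygote. Slc30a3 encodes a vesicular zinc transporter (chromosome 5, 31388479 to 31395988). It stood at 237 and 158 FPKM in WT zygotes and at 23.6 and 17 in WT 2-cell embryos, with a log2 difference of -3.21 ± 0.49 (SE, adjusted p = 0.00220). Its neighbour on the chromosome, 37182 bases away, is Slc5a6, which rose over the same interval. Slc7a11, the cystine/glutamate exchanger, went from 15.9 and 18.1 to 2.85 and 2.48 FPKM, with a log2 difference of -2.29 ± 0.26 (SE, adjusted p = 0.000661). Slc4a8, a sodium-driven chloride/bicarbonate exchanger, went from 10.7 and 9.22 to 1.32 and 1.69, with a log2 difference of -2.13 ± 0.23 (SE, adjusted p = 0.000553). In all 3 the WT stages did not overlap. Without WT 2-cell replicate 2, the adjusted p of Slc30a3 was 0.0509.

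Slc35a1 carries CMP-sialic acid into the Golgi, and it went from 32.3 and 31.1 to 7.01 and 7.45 FPKM, with a log2 difference of -1.99 ± 0.18 (SE, adjusted p = 0.000281). Slc25a26, the mitochondrial S-adenosylmethionine carrier, went from 19.1 and 13.2 to 4.95 and 2.60, with a log2 difference of -1.87 ± 0.38 (SE, adjusted p = 0.00709). Slc7a2, a cationic amino acid transporter, went from 25.6 and 23.3 to 5.20 and 7.84, with a log2 difference of -1.78 ± 0.22 (SE, adjusted p = 0.000986). The mitochondrial citrate carrier Slc25a1, the copper transporter family member Slc31a2, the ascorbate transporter Slc23a2 and the glycine transporter Slc6a9 also fell, by 1.56, 1.32, 1.31 and 1.22 on the log2 scale with adjusted p of 0.0402, 0.00767, 0.00895 and 0.0304. These last 4 lost the call in at least 1 other fit, with adjusted p up to 0.263, 0.0564, 0.0677 and 0.220. Without WT 2-cell replicate 1 the call was lost for Slc25a1, Slc23a2 and Slc6a9, without WT 2-cell replicate 2 for Slc25a26 (adjusted p = 0.0979), Slc25a1 and Slc6a9, and without WT zygote replicate 1 or either of the cKO 2-cell replicates for Slc25a1 and Slc6a9.

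**Figure D2:**
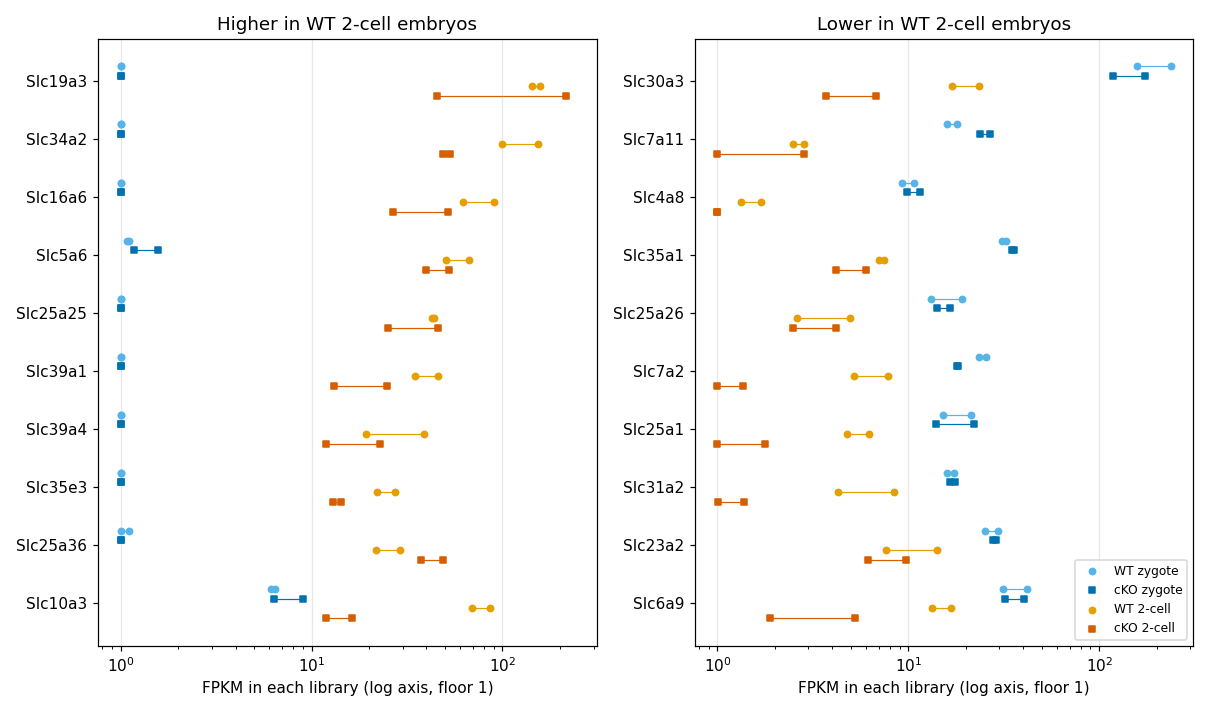
FPKM in each of the 8 libraries (log axis, floor 1) for the 10 transporters with the largest called rise and the 10 with the largest called fall from WT zygotes to WT 2-cell embryos. In 9 of the 10 on the left every cKO and WT zygote library lay at or just above 1, while Slc10a3 was read at 6 to 9 FPKM in zygotes.

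Between the zygotes of both genotypes the transporters differed little. Of the 226 members, 1 was called higher in cKO and none lower by limma, while over all genes 0.167% were higher and 0.0278% lower. With no adjustment, 20 members (8.85%) were higher and 7 (3.10%) lower at a p under 0.05, against 7.34% and 3.53% of all genes. No member passed a 3-fold difference of the means, which 0.104% of all genes passed upward and 0.0486% downward. The member called was Slc26a5, the motor protein prestin of cochlear hair cells. It stood at 1.42 and 1.35 FPKM in WT and 2.2 and 2.34 in cKO zygotes, close to the floor, with a log2 difference of 0.45 ± 0.05 (SE, adjusted p = 0.0435). It lost the call in 11 of 15 other fits, among them those without either of the WT zygote, WT 2-cell or cKO 2-cell replicates, and the adjusted p ranged from 0.0234 to 0.696. Without cKO zygote replicate 2, limma called 8 members higher and 1 lower.

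The other transporters named between the zygotes, whose libraries did not overlap either, missed the threshold. Such separation was frequent, with 43 members (19.0%) higher and 15 (6.64%) lower in both cKO zygote libraries. Over all genes the shares were 15.8% and 10.2%. Slc16a11 stood at 1.56 and 1.47 FPKM in WT and 4.47 and 2.74 in cKO zygotes, with an adjusted p of 0.195. Slc35b3, which carries the sulfate donor PAPS into the Golgi, stood at 4.20 and 2.91 and 7.25 and 5.92, with an adjusted p of 0.329. Slc16a5 stood at the floor in WT and at 3.02 and 1.74 in cKO, with an adjusted p of 0.246. In the other direction, the mitochondrial aspartate/glutamate carriers Slc25a13 and Slc25a12 and the phosphate carrier Slc25a3 were read lower in both cKO zygote libraries. Slc25a13 stood at 22.1 and 20.8 in WT and 11.2 and 14.3 in cKO, Slc25a12 at 5.35 and 3.73 and 2.45 and 2.74, and Slc25a3 at 76.0 and 64.3 and 47.9 and 42.0. Their adjusted p were 0.229, 0.232 and 0.361.

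Between cKO and WT 2-cell embryos, 14 of the 226 transporters fell and 1 rose by limma. Over all genes, 5.93% fell and 0.834% rose, so the members' shares were close to the background. The median log2 difference was -0.43 over the members and -0.30 over all genes. By a 3-fold difference of the means 31 members were lower and 1 was higher, against 13.5% and 2.84% of all genes. The 1 higher was Slc35b3, whose cKO replicates lay far apart, as given below. In 113 members the cKO values were both under the WT values and in 11 both over, against 43.4% and 14.0% of all genes. After median-ratio scaling these counts were 70 and 21, against 28.0% and 21.8%, and limma called 4 lower and 3 higher.

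The number of calls depended on the model and on single libraries. Of the 14, 10 (71.4%) were at the floor in all 4 zygote libraries, where the spread is 0, and limma pools the spread over the groups. Among all genes called lower, 466 of 854 (54.6%) were at the floor there. With the 4 2-cell libraries alone, limma called none of the 226 in either direction, while without adjustment 66 (29.2%) were lower and 2 higher at a p under 0.05, against 23.7% and 5.69% of all genes. No call of the 14 was kept in every other fit. Leaving out WT zygote replicate 1 or 2 gave 4 lower calls, cKO zygote replicate 1 or 2 gave 5, cKO 2-cell replicate 1 gave 11 and replicate 2 gave 9, and WT 2-cell replicate 1 gave 35 and replicate 2 gave 29.

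Among the 14, 4 were stored in the zygote and not called between the WT stages. Slc3a2 encodes the heavy chain (4F2hc) that carries several Slc7 amino acid transporters to the cell surface (chromosome 19, 8781372 to 8797859 on mm9). In zygotes it stood at 59.7 and 56.4 FPKM (WT) and 77.6 and 62.1 (cKO), and in WT 2-cell embryos at 64.9 and 105. In cKO 2-cell embryos it stood at 11.8 and 12.6, 7.0-fold lower than in WT, with a log2 difference of -2.67 ± 0.51 (SE, adjusted p = 0.0373). Both cKO 2-cell libraries lay below the other 6. Slc25a15, the mitochondrial ornithine carrier, stood at 53.7 and 49.5 FPKM in WT and 17.5 and 16.1 in cKO 2-cell embryos, with a log2 difference of -1.56 ± 0.29 (SE, adjusted p = 0.0352).

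Slc15a5, of the peptide transporter family, stood at 22.2 and 21.0 FPKM in WT and 4.45 and 5.19 in cKO 2-cell embryos, with a log2 difference of -1.96 ± 0.29 (SE, adjusted p = 0.0210). It kept its call in 14 of 16 other fits, the most of the 4. Slc20a1, the sodium-phosphate cotransporter PiT-1, stood at 17.9 and 22.5 and 3.71 and 4.69, with a log2 difference of -2.03 ± 0.40 (SE, adjusted p = 0.0407). All 8 zygote readings of Slc15a5 and Slc20a1 lay between 19.0 and 26.3 FPKM. Over their other fits, the adjusted p of the 4 reached 0.155 for Slc3a2, 0.0939 for Slc25a15, 0.0652 for Slc15a5 and 0.125 for Slc20a1.

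The other 10 had no reading above the floor in zygotes. Slc2a8 encodes GLUT8, an intracellular glucose transporter (chromosome 2, 32828510 to 32837603). It stood at 6.61 and 6.76 FPKM in WT and 1.39 and 1 in cKO 2-cell embryos, with a log2 difference of -1.81 ± 0.15 (SE, adjusted p = 0.00701). Slc1a4, the neutral amino acid transporter ASCT1, stood at 6.38 and 6.41 and 1.73 and 1, with a log2 difference of -1.66 ± 0.18 (SE, adjusted p = 0.00973). Slc40a1, the iron exporter ferroportin, stood at 4.58 and 4.52 and 1.55 and 1, with a log2 difference of -1.30 ± 0.15 (SE, adjusted p = 0.0101). In these 3, replicate 2 of cKO was at the floor, and the adjusted p over other fits reached 0.0607, 0.0728 and 0.0700.

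Slc14a2, a urea transporter, stood at 7.30 and 12 FPKM in WT and 1.71 and 1 in cKO 2-cell embryos, with a log2 difference of -2.16 ± 0.31 (SE, adjusted p = 0.0204). Slc5a4b, of the sodium-glucose cotransporter family and with a close copy in Slc5a4a, stood at 7.89 and 8.64 and 3.74 and 3.36, with a log2 difference of -1.03 ± 0.21 (SE, adjusted p = 0.0437). Slc30a2, a vesicular zinc transporter, stood at 4.37 and 6.65 and 1.61 and 1, with a log2 difference of -1.49 ± 0.25 (SE, adjusted p = 0.0280). The remaining 4 were read at 1.64 to 3.12 FPKM in WT, close to the floor: Slc37a1, an endoplasmic glucose-6-phosphate carrier, Slc38a3, a glutamine transporter, Slc41a3, of the magnesium transporter family, and Slc5a5, the iodide transporter. Their log2 differences were -0.86, -0.77, -0.51 and -0.43. The 1 transporter that rose was Slc13a3, a sodium-dicarboxylate cotransporter, which was at the floor in the other 6 libraries and at 2.2 and 2.28 FPKM in cKO 2-cell embryos, with a log2 difference of 0.70 ± 0.09 (SE, adjusted p = 0.0136).

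**Figure D3:**
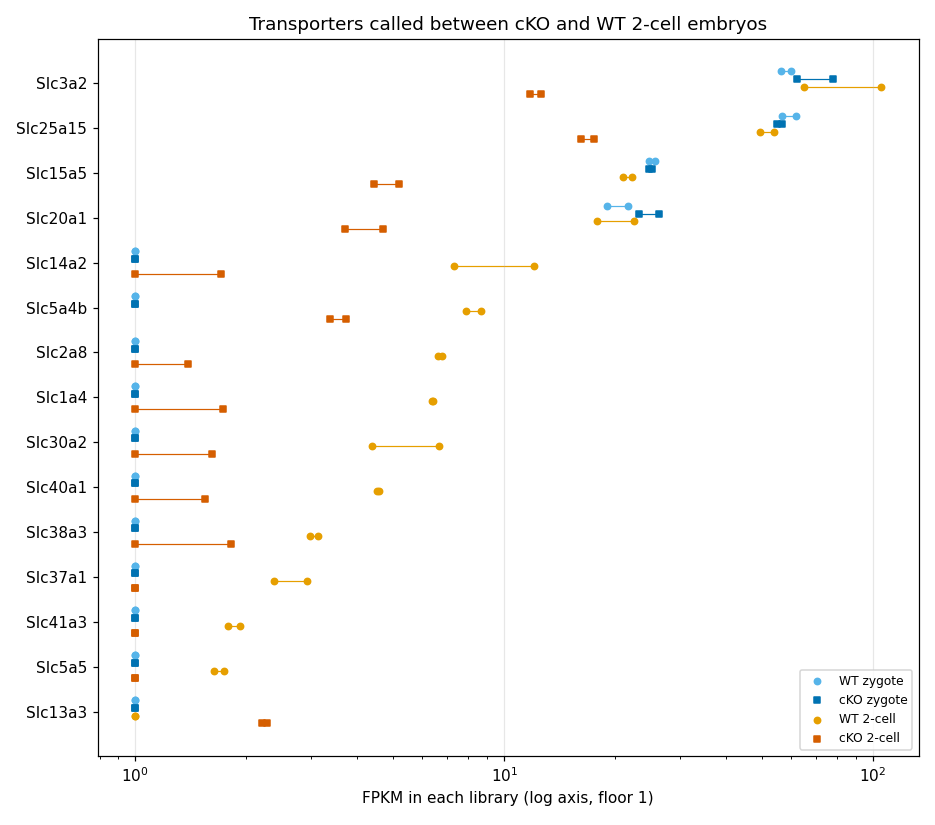
FPKM in each of the 8 libraries (log axis, floor 1) for the 15 transporters called between cKO and WT 2-cell embryos. In the first 4 rows the cKO 2-cell libraries lay below both the WT 2-cell and the zygote libraries, and in 10 of the other 11 rows the zygote libraries were at 1 and the WT 2-cell libraries above it.

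Some abundant transporters were not called although both cKO libraries were well below both WT libraries. Slc39a8, a zinc and manganese importer, stood at 33.8 and 20.0 FPKM in WT and 1.06 and 1 in cKO 2-cell embryos. Its mean was 26.0-fold lower, a lower bound since 1 cKO library was at the floor, with an adjusted p of 0.296, and its zygote replicates themselves differed, at 23.2 and 9.92 in WT. Slc10a3 stood at 69.3 and 85.9 in WT and 16.3 and 11.8 in cKO, 5.51-fold lower, with an adjusted p of 0.0643. Slc35a4, of the nucleotide sugar family, stood at 37.4 and 42.6 and 8.82 and 6.46, 5.23-fold lower, with an adjusted p of 0.0538. Slc39a8 and Slc35a4 were chosen after their values were seen.

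Of the 10 transporters with the largest rise in WT, none was called between the 2-cell genotypes. Slc34a2 stood at 53.2 and 48.5 FPKM in cKO, below both WT libraries, with a log2 difference of -1.26 ± 0.38 (SE, adjusted p = 0.105). Slc16a6 stood at 26.6 and 51.9, Slc39a1 at 25 and 13.2 and Slc35e3 at 13.0 and 14.3 in cKO, each also below both WT libraries, with adjusted p of 0.217, 0.157 and 0.191. Slc5a6, at 52.7 and 39.6, Slc25a25, at 46.1 and 25.1, Slc39a4, at 22.9 and 11.9, and Slc19a3, at 45.5 and 216, overlapped WT. Slc25a36 was read higher in both cKO libraries, at 48.8 and 37.4, with an adjusted p of 0.267. Of the 52 members at the floor in all zygotes and above it in both WT 2-cell libraries, 34 were lower in both cKO 2-cell libraries than in both WT libraries and 12 were at the floor in both. Over all genes of that kind these numbers were 1445 and 563 of 2565. Both sets were chosen for WT 2-cell values above the floor, which by itself favours lower cKO values. These counts are therefore a description and no test. The 10 transporters above were likewise chosen by their WT 2-cell values.

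**Figure D4:**
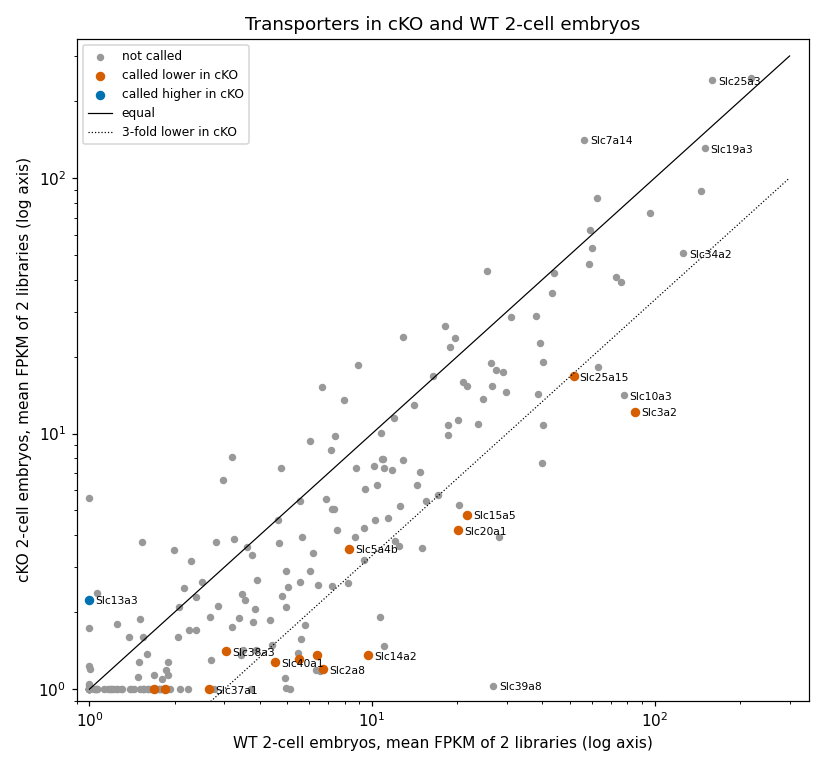
Mean FPKM of the 2 cKO libraries against that of the 2 WT libraries at the 2-cell stage for the 226 transporters (both axes log), with calls by limma in colour. Most points lay below the line of equal values, and 31 lay below the dotted line of a 3-fold lower mean.

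The counts called in each class are small and are to be read against the shares of all genes, of which 36.6% rose and 14.9% fell between the WT stages and 5.93% fell in cKO 2-cell embryos. Single members made up much of some class sums in WT 2-cell embryos, with Slc34a2 at 85.3% of phosphate, Slc19a3 at 63.3% of vitamin, Slc16a6 at 60.9% of monocarboxylate and Slc10a3 at 50.9% of organic ion. Among sugar transporters, 7 of 17 rose and 2 fell from WT zygotes to WT 2-cell embryos, and 3 fell in cKO against WT 2-cell embryos. Their summed FPKM was 259 and 257 in WT zygotes, 189 and 228 in WT and 127 and 122 in cKO 2-cell embryos, and the groups did not overlap under any of 3 scalings. Most of this sum was Slc45a3, of a family related to sugar transporters, which fell from 219.5 and 222 to 133 and 159 FPKM, with a log2 difference of -0.60 ± 0.17 (SE, adjusted p = 0.0269), and whose adjusted p was 0.0575 without WT 2-cell replicate 1. Slc2a1, which encodes the glucose transporter GLUT1, was read at 14.1 and 9.42 in WT zygotes, 4.04 and 8.82 in WT and 3.69 and 1.43 in cKO 2-cell embryos, with no call. Slc2a3, which encodes GLUT3, rose from the floor to 8.06 and 12.5, with a log2 difference of 2.47 ± 0.24 (SE, adjusted p = 0.000333), and stood at 2.59 and 6.63 in cKO.

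In the monocarboxylate and dicarboxylate class, 3 of 13 rose and 1 fell between the WT stages. The summed FPKM was 28.8 and 28.1 in WT zygotes, 101 and 149 in WT and 54.9 and 74.9 in cKO 2-cell embryos. The genotypes were not separated after median-ratio scaling. Slc16a1, the pyruvate and lactate transporter MCT1, rose from 8.09 and 6.93 to 16.1 and 24.1 FPKM, with a log2 difference of 1.29 ± 0.24 (SE, adjusted p = 0.00540), and stood at 12.7 and 9.97 in cKO. Its relatives Slc16a3 (MCT4) and Slc16a7 (MCT2) did not exceed 1.5 and 1.16 FPKM in any library.

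Of 35 amino acid and peptide transporters, 9 rose and 6 fell between the WT stages, and 4 fell in cKO 2-cell embryos. In 20 of the 35 both cKO libraries were below both WT libraries, against 43.4% of all genes as deposited. The heavy chain Slc3a2 was called between the 2-cell genotypes and not between the WT stages. Its partners Slc7a5 and Slc7a6 were called by limma between the WT stages and not between the 2-cell genotypes (adjusted p of 0.488 and 0.590). Whether their patterns differ was not tested. Slc7a5, the light chain of LAT1, rose from 1.97 and 2.12 to 11.4 and 9.01 FPKM, with a log2 difference of 1.87 ± 0.42 (SE, adjusted p = 0.0108), and stood at 13.5 and 1.43 in cKO, where the replicates were 9.39-fold apart. Slc7a6 rose from 1.15 and 1.10 to 8.63 and 6.41, with a log2 difference of 1.99 ± 0.42 (SE, adjusted p = 0.00865), and stood at 4.70 and 3.68 in cKO. Without WT 2-cell replicate 1 or 2, the adjusted p was 0.126 or 0.0866 for Slc7a5 and 0.118 or 0.0763 for Slc7a6. Slc7a11 fell, as given above.

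Slc1a5, the glutamine transporter ASCT2, rose from the floor to 12.5 and 18.5 FPKM, with a log2 difference of 3.02 ± 0.20 (SE, adjusted p = 9.46e-05), and stood at 4.66 and 6.25 in cKO, with an adjusted p of 0.0699. Slc6a9, the glycine transporter GLYT1 that supplies an osmolyte, stood at 41.6 and 31.4 in WT zygotes, 13.3 and 16.7 in WT and 5.26 and 1.89 in cKO 2-cell embryos. Slc6a20a, a proline transporter, stood at 4.88 and 3.68, 3.20 and 2.16 and the floor, and Slc7a1, a cationic amino acid transporter, at 2.59 and 3.74, 1.77 and 1.67 and the floor, with no call for either. Slc38a2 did not exceed 2.2 FPKM. Slc6a20a has a close copy, Slc6a20b, 3557 bases away, and reads may be shared between them.

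In the ion and pH class, 5 of 28 rose and 5 fell between the WT stages, and 1 fell in cKO 2-cell embryos. Slc12a2, the sodium-potassium-chloride cotransporter NKCC1, rose from 2.96 and 5.15 to 19.3 and 16.9 FPKM, with a log2 difference of 1.95 ± 0.51 (SE, adjusted p = 0.0196). It stood at 25.2 and 27.6 in cKO, 1 of 11 members read higher in both cKO libraries. The rise of Slc12a2 was not called without WT 2-cell replicate 1 or 2 (adjusted p of 0.17 and 0.139) or without either of the cKO 2-cell replicates (0.0586). The chloride/bicarbonate exchanger Slc4a2 did not exceed 1.52 FPKM. Of the 5 neurotransmitter and osmolyte transporters, 2 rose between the WT stages. The taurine transporter Slc6a6 stood at 6.32 and 12.1, 2.95 and 6.33 and 5.67 and 3.51 in WT zygotes, WT and cKO 2-cell embryos, and the groups overlapped. The creatine transporter Slc6a8 rose from the floor to 1.31 and 1.72, with a log2 difference of 0.32 ± 0.09 (SE, adjusted p = 0.0223), a call lost without WT 2-cell replicate 2 (adjusted p = 0.125) and without WT zygote replicate 1 or 2 (0.0534 and 0.0537).

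Of 23 metal transporters, 13 rose and 4 fell between the WT stages, and 3 fell in cKO 2-cell embryos. The zinc importers Slc39a6 and Slc39a10 were among the abundant stored transcripts. Slc39a10 stood at 65.3 and 86.5 FPKM in WT zygotes, 52.8 and 66.8 in WT and 61.3 and 44.9 in cKO 2-cell embryos, with no call. Slc39a6 fell from 54.8 and 54.0 to 25.7 and 33.8, with a log2 difference of -0.86 ± 0.20 (SE, adjusted p = 0.0111), and stood at 15.2 and 13.8 in cKO. Without WT 2-cell replicate 1 its adjusted p was 0.0501. Slc30a9 was read at 5.90 and 5.38 in WT and 1 and 6.88 in cKO 2-cell embryos, with no call. In the Slc39 family, which brings zinc into the cytosol, 4 of 8 rose and 1 fell. In the Slc30 family, which moves it out of the cytosol, 4 of 7 rose and 1 fell. The summed metal class as deposited was lower in both cKO than in both WT 2-cell libraries, and it overlapped after median-ratio scaling.

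The phosphate class had 3 members, of which Slc34a2 rose between the WT stages and Slc20a1 fell in cKO. Its sum was 21.0 and 23.6 FPKM in WT zygotes, 119 and 177 in WT and 58.1 and 54.2 in cKO 2-cell embryos, and cKO lay below WT under all 3 scalings. Of 9 vitamin, cofactor and haem transporters, 4 rose and 1 fell between the WT stages. The class sum was 39.6 and 40.6 in WT zygotes, 219.7 and 254 in WT and 119 and 287 in cKO 2-cell embryos, and the cKO replicates lay on either side of WT. Slc19a1, the reduced folate carrier, rose from the floor to 3.03 and 3.44, with a log2 difference of 1.08 ± 0.16 (SE, adjusted p = 0.00177). Among 5 nucleoside transporters 4 rose, and Slc29a1 (ENT1) moved from the floor to 1.23 and 2.54, with a log2 difference of 0.49 ± 0.16 (SE, adjusted p = 0.0394). This call was lost without any of the zygote libraries or either of the cKO 2-cell replicates, with an adjusted p of 0.0688 to 0.0954.

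Of 21 nucleotide sugar and secretory pathway transporters, 9 rose and 1 fell between the WT stages, and none was called in cKO 2-cell embryos by limma, with 12 lower and 3 higher in both cKO libraries, against 43.4% and 14.0% of all genes. Slc33a1, which carries acetyl-CoA into the endoplasmic reticulum, rose from 2.12 and 3.51 to 13.5 and 8.52 FPKM, with a log2 difference of 1.65 ± 0.50 (SE, adjusted p = 0.0335). Its call was lost without WT 2-cell replicate 1 or 2, WT zygote replicate 1 or either of the cKO 2-cell replicates, with an adjusted p of 0.0787 to 0.269. Of 15 organic ion and bile acid transporters, 9 rose and none fell. Their sum was 32.9 and 27.6 in WT zygotes, 140.4 and 165 in WT and 44.5 and 57.1 in cKO 2-cell embryos, and cKO lay below WT under all 3 scalings. Of 10 fatty acid, choline and lipid transporters, 5 rose. Of the 4 left unassigned, Slc14a2 rose between the WT stages and fell in cKO.

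The mitochondrial carrier family was the largest class, with 38 members, of which 17 rose and 2 fell between the WT stages and 1 fell in cKO 2-cell embryos. Its sum was 856 and 693 FPKM in WT zygotes, 1146 and 1116 in WT and 1319.8 and 854 in cKO 2-cell embryos. The genotypes overlapped as deposited, and after median-ratio scaling cKO was 1.32 times WT with both libraries above. After scaling by the summed FPKM of each library, cKO was 0.840 times WT and the genotypes overlapped. Slc25a5, an ADP/ATP carrier and the most abundant transporter, stood at 264 and 153 in WT zygotes, 266 and 173 in WT and 180.0 and 311 in cKO 2-cell embryos, with overlapping groups. The ADP/ATP carriers Slc25a4 and Slc25a31, the latter known from germ cells, stood at 20.4 and 32.4 and 40.4 and 38.3 in WT and at 21.8 and 15.8 and 26.6 and 18.8 in cKO. The carriers are similar in sequence and Slc25a5 has processed copies, and how shared reads were assigned is not given in the sources used here.

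Slc25a38, the carrier that brings glycine in for haem synthesis, rose from 19.9 and 17.8 to 105 and 86.4 FPKM, with a log2 difference of 2.29 ± 0.29 (SE, adjusted p = 0.000965), and stood at 86.3 and 59.3 in cKO. Slc25a17, a family member of the peroxisome, stood at 72.1 and 67.7, 66.8 and 51.4 and 59.1 and 65.6, with no call. Slc25a3, the mitochondrial phosphate carrier, stood at 124 and 194 in WT and 398 and 83.3 in cKO 2-cell embryos. Its cKO replicates lay on either side of WT and 4.78-fold apart.

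Such disagreement between the cKO 2-cell replicates was common. Of the 226 members, 27 were more than 3-fold apart in cKO 2-cell embryos and 1 in WT 2-cell embryos, against 13.3% and 1.38% of all genes. Slc7a14, of the cationic amino acid transporter family, stood at 71.7 and 41.1 FPKM in WT and 58.2 and 224 in cKO. Slc35b3 showed the widest gap, at 1.01 and 10.2 in cKO against the floor in WT.

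**Figure D5:**
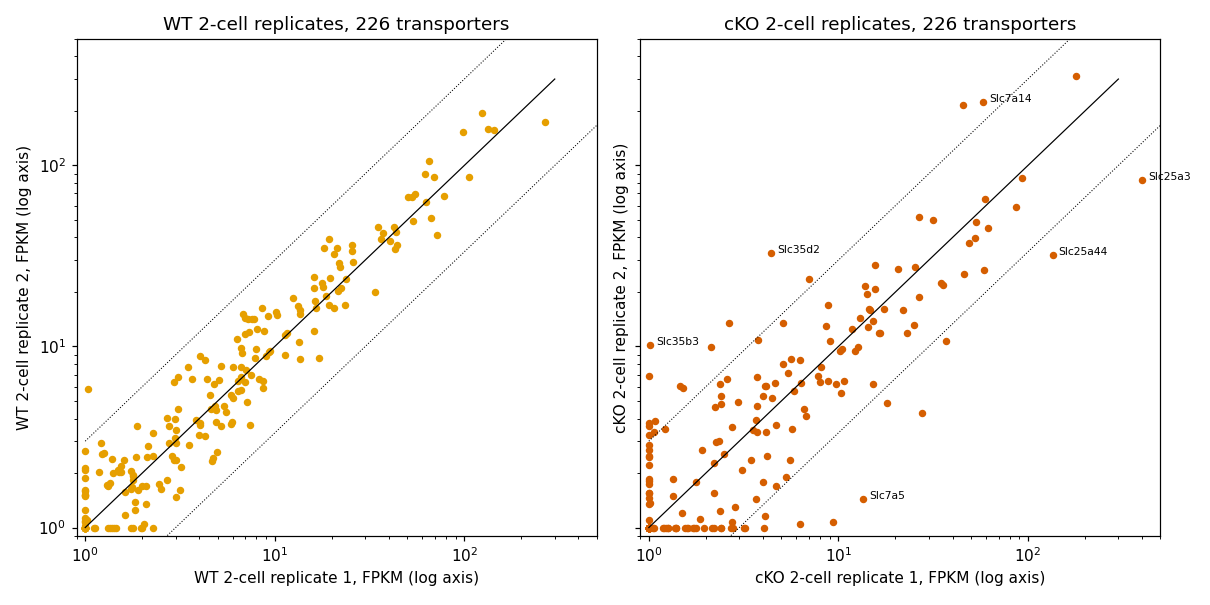
FPKM of replicate 2 against replicate 1 for the 226 transporters in WT (left) and cKO (right) 2-cell embryos, both axes log, with a line of equal values and dotted lines 3-fold away. A gap of more than 3-fold separated the replicates of 1 transporter in WT and of 27 in cKO.

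The difference between the genotypes was also compared between the stages, as an interaction term. By limma, 12 of the 226 members had a lower and 1 a higher log2 difference at the 2-cell stage than in zygotes, against 4.55% and 0.605% of all genes. The smallest p was that of Slc2a8, at -1.81 ± 0.16 (SE) with an adjusted p of 0.00873. Slc1a4 followed at -1.66 ± 0.19 and 0.0123, Slc40a1 at -1.30 ± 0.15 and 0.0128, Slc13a3 at 0.70 ± 0.09 and 0.0173, and Slc37a1 at -0.86 ± 0.13 and 0.0252. All 5 were at the floor in zygotes of both genotypes, so these values equal those at the 2-cell stage. No member was called when the replicate number was added to the model, as numbered or with the 2-cell pairing crossed. The labels describe no pairing. The interaction count fell to 0 without either of the WT zygote libraries and to 5 without cKO zygote replicate 1, and it rose to 37 and 33 without WT 2-cell replicate 1 and 2.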

How the data were processed

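RNA-seq was analysed in 8 libraries, and 7 H2AK119ub1 ChIP-seq samples were not used here. Trimmed reads were aligned by the authors to mm9 (TopHat2 2.1.1), and they deposited FPKM values from Cufflinks 2.2.1, floored at 1. The gene annotation is not given in the sources used here, and Smart-seq2 does not mark strand, so overlapping antisense transcripts cannot be told apart. From these values, limma 3.58.1 (R 4.3.3) was fitted on log2(FPKM + 1) to all 14392 genes, with 4 group means, 1 weight per group, a trended prior and 4 residual degrees of freedom, and Benjamini-Hochberg adjusted p under 0.05 was called. Fold changes on this scale understate those of low genes. The p-values measure only the spread between the 2 libraries of a group, pooled over the 4 groups with their weights and moderated by the prior. An exact permutation test of 2 against 2 cannot go below 0.333.

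On simulated data under 2 models of the spread, the smoother one added after the result of the first was seen, limma called unchanged genes at the 2-cell stage in both. On these simulated data its calls there held more false ones than the adjusted p states, so the real calls at the 2-cell stage may do so too. The members, classes, lists and tests were chosen with earlier results of these data known. Named genes were the 10 most abundant, the 10 largest called changes each way whose libraries did not overlap (for zygotes the called genes and the 3 largest each way, for the interaction the 5 smallest p), and a list of 30 transporters known in embryos, of which 29 are listed and 1 is not reported here. Gene positions on mm9 were taken from GENCODE M1, where 225 members have a single entry. Promoters are from RefSeq (GRCm38.p6). Tables were handled in Python 3.11.15 with pandas 2.3.3.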

Additional observations from a re-analysis of the deposited data

Results flagged for a closer look

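For 13 of the 226 transporters the difference between cKO and WT changed from zygotes to 2-cell embryos by limma's interaction term. The value given for each is the log2 difference at the 2-cell stage minus that in zygotes. It was -2.92 for Slc3a2, -2.30 for Slc20a1, -2.16 for Slc14a2, -1.94 for Slc15a5, -1.81 for Slc2a8, -1.66 for Slc1a4, -1.49 for Slc30a2 and -1.30 for Slc40a1. It was -0.92 for Slc26a5, -0.86 for Slc37a1, -0.51 for Slc41a3 and -0.43 for Slc5a5, which are all close to the floor, and 0.70 for Slc13a3, which is too. For 9 of the 13 all zygote libraries were at the floor, so the interaction repeats the 2-cell difference. The log2 difference of Slc26a5 was 0.45 in zygotes, a call lost in 11 of 15 other fits, and -0.46 at the 2-cell stage, which was not called (adjusted p = 0.117). Groups of 2 libraries allow no check for single outlying libraries.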

How the results depend on the processing

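The counts of transporters called were recomputed under other settings, and no named transporter that was called turned direction. The filter, a mean FPKM of at least 3, leaves 126 of the 226 members in each count that uses it. From WT zygotes to WT 2-cell embryos, the 89 rises became 59 with this filter and 59 by the 3-fold rule. They became 50 when every library had to be more than 3-fold apart. By these last 2 rules the 22 falls became 9 and 4. Leaving out 1 library gave 74 to 87 rises and 11 to 27 falls. In zygotes, the 1 call higher became 0 with a replicate block, a crossed block, no array weights, median-ratio scaling, the filter, the 3-fold rule or every library apart, and 2 by the 2-fold rule. Median-ratio and sum scaling gave 1 lower. Leaving out 1 library gave 0 to 8 higher and 0 to 1 lower. At the 2-cell stage, the 14 lower calls became 0 with a replicate block or with 4 libraries only, 4 with median-ratio scaling, 22 with sum scaling, 62 without array weights, 31 by the 3-fold and 67 by the 2-fold rule. The 1 higher became 0 with a replicate block, 4 libraries, the filter or every library apart, 3 with median-ratio scaling or no array weights, and 9 by the 2-fold rule. Leaving out 1 library gave 4 to 35 lower and 1 to 4 higher. The 13 interaction calls became 0 with the replicate block or the crossed block, 6 with the filter, 7 with median-ratio scaling and 30 without array weights, and 0 to 37 without 1 library. The causes were not tested.

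The replicate numbers are shared by the groups, but no pairing is described. Same-numbered libraries deviated together in zygotes (correlation 0.514) and apart at the 2-cell stage (-0.271). The crossed pairing of the 2-cell libraries, added after the data were seen, gave 12 lower and 1 higher there. With 1 library left out, the lone one of its group was assumed to vary like the others. FPKM hold no counts, so what depth limits is unknown. Of these counts 59 moved, and the other 77 stayed within 1.5 times, among them those on log2(FPKM) and those with the literal reading of the name rule (230 genes).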
